A study of Mus musculus with 4 samples.

Results

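Etv4 and Etv5, a pair of PEA3-type ETS transcription factors, were 6.39-fold and 3.82-fold higher in mouse small cell lung cancer (SCLC) cells kept with the CDK7 inhibitor YKL than in cells kept with vehicle. They belong to a set of 10 genes described here, the PEA3 factors Etv1, Etv4 and Etv5 and the ERK feedback genes Dusp4, Dusp5, Dusp6, Spry1, Spry2, Spry4 and Spred1. The genes were found by symbol in the deposited gene annotation and joined by Ensembl identifier to the count table, which holds 54232 genes. All 10 passed the filter on low counts, as did 16749 genes in total. The set was put together because Etv4 and Etv5 were already known to be higher with YKL. Its fold changes, and the calls made on them, are therefore a description of these libraries and not a test.

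The cells were of 1 line, RPP631, labelled as SCLC lung cancer cells. The vehicle group was kept for 48 h in DMSO and the treated group for 48 h in 100 nM YKL, which the title of the series describes as a CDK7 inhibitor. CDK7 is the catalytic subunit of a complex within TFIIH that phosphorylates RNA polymerase II, and it also activates cell cycle kinases. Each group had 2 bulk RNA libraries. No genotype of the line is given in the labels, nor whether replicates came from separate cultures, so any p-value covers only the spread between these libraries.

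ERK is the last kinase of the cascade that carries signals from growth factor receptors through RAS, RAF and MEK. Its activity induces a small group of genes, among them the PEA3 factors, which bind ETS sites in DNA, and several inhibitors that close a negative feedback loop. The DUSP proteins remove phosphate from MAP kinases, whereas Sprouty and SPRED proteins act further up, at the level of the receptor and RAS. In the developing lung, Etv4 and Etv5 are expressed in the epithelium under control of FGF signalling. Without ERK activity the repressor Capicua, encoded by Cic, keeps PEA3 genes low.

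The libraries held 34189709 and 31082753 assigned counts for DMSO and 29817387 and 32956564 for YKL. DMSO replicate 2 stood apart, with a score of -51.8 on the second principal component against 37.2 for DMSO replicate 1 and 17.8 and -3.2 for the YKL libraries. All 7 markers reported here for neuroendocrine SCLC, such as Chga and Insm1, were above 1 CPM (read counts scaled to library size by TMM) in every library. Their summed level was 2930 CPM in both DMSO libraries and 2690 and 2700 CPM in the YKL libraries, but single markers moved apart. Nkx2-1, a lung lineage transcription factor, had 403 and 408 CPM in DMSO and 168 and 201 CPM in YKL (log2 fold change -1.14 ± 0.18, edgeR adjusted p = 0.0189), a call that ended without either YKL library. Chga, the chromogranin A gene, had 537 and 569 CPM in DMSO and 759 and 679 CPM in YKL and was not called. The summed level of 5 fibroblast markers was 1.4 to 4.12 CPM in DMSO and 1.43 to 2.09 CPM in YKL, with none at 0 in every library. For 4 leukocyte markers it was 1.61 to 2.28 CPM and 3.82 to 5.55 CPM, with Cd3e at 0 in every library. Of these, Lyz2 had 1.58 and 2.16 CPM in DMSO and 4.63 and 3.07 CPM in YKL and was not called. Ptprc had 0, 2, 25 and 23 counts and was called higher (log2 fold change 4.46 ± 0.96, edgeR adjusted p = 0.0392). That call held in 5 of 14 alternatives. The 4 endothelial markers summed to 2.33 to 2.86 CPM and 2.92 to 4.08 CPM, and the 5 lung epithelial markers to 7.17 to 10.8 CPM and 15.5 to 16.3 CPM. The higher sum of the latter in YKL came from Foxj1, a factor of ciliated cells, at 8.58 and 4.89 CPM in DMSO and 14 and 15.4 CPM in YKL, which was not called. The other 4 summed to 2.18 and 2.28 CPM in DMSO and to 1.47 and 0.869 CPM in YKL. These single markers were chosen after their values were seen. The part of these differences in the results was not tested. In bulk RNA, more cells that express a gene and more RNA of it per cell cannot be told apart.

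The start-site windows of 3 of these genes hold the letters TGAATG, which begin the octamers TGAATGAA and TGAATGGA bound by Capicua. The windows run from 250 bases before to 50 bases after a RefSeq start site on GRCm38.p6, the mm10 assembly, and they are shown because these letters are the feature they share. The motif was chosen after some of the sequences had been seen. In each line, TGAATG or its reverse complement CATTCA is in capitals, and the sequence reads in the direction of the gene.
Etv5, chr16:22438319-22438618, minus strand: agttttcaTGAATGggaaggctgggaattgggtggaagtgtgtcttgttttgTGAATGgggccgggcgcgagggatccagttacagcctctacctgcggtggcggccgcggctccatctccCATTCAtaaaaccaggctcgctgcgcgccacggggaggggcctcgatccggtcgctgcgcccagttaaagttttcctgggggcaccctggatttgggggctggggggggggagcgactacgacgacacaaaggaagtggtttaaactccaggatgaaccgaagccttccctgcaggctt
Dusp6, chr10:99262981-99263280, plus strand: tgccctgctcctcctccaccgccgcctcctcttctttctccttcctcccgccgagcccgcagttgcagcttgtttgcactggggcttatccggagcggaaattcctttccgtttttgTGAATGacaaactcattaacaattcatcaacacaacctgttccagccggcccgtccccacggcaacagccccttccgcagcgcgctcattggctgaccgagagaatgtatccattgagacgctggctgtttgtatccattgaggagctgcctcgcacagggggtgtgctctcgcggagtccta
Dusp5, chr19:53528895-53529194, plus strand: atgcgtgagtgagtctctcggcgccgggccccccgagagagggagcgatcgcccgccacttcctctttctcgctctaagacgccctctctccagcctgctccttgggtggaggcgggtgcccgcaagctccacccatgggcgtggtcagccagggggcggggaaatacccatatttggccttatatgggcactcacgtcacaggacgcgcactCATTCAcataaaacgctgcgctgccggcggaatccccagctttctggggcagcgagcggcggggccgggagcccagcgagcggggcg
In the Etv5 window the letters begin 242, 198 and 129 bases before the start site, the last of these on the opposite strand. In Dusp6 they begin 133 bases before it, and in Dusp5 37 bases before it on the opposite strand. The Etv5 start site of this window lies in an intron of the counted gene model, 1351 bases downstream of its first base. The other Etv5 window, at chr16:22439521-22439820, does not hold TGAATG on either strand. RefSeq windows were matched for 7 of the 10 genes, 9 windows in all, and none was matched for Etv4, Dusp4 or Spry4. The windows of Etv1, Spry1, Spry2 and Spred1 do not hold TGAATG on either strand. The Etv1 start sites lie in exons, 702 and 4331 bases downstream of the first base of the counted gene model. That of Spred1 lies outside its counted gene model. Of all 32851 RefSeq windows 12.7% hold TGAATG on either strand, and of the 14019 windows of tested protein-coding genes 8.27% do. Neither TGAATGAA nor TGAATGGA is in any of the 9 windows. They are in 1.3% and 1.21% of all windows and in 0.885% and 0.678% of those of tested coding genes. No other form of the Capicua site was searched for, so these values do not show that the windows lack one. The ETS core CCGGAA is in 1 of the 9, that of Spry2, in 14.9% of all windows and in 24.9% of those of tested coding genes. The AP-1 site TGANTCA is in none of them, in 7.81% of all windows and in 5.1% of those of tested coding genes. A match describes letters in a window, and its absence says nothing of the factor.

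Among the PEA3 factors, Etv4 (ENSMUSG00000017724, chromosome 11, 101769742 to 101785371, minus strand, mm10) was read 141 and 168 times in the DMSO libraries, here and below in the order of replicates 1 and 2, against 1123 and 784 times in the YKL libraries. These counts equal 4.21 and 5.33 CPM in DMSO and 36.6 and 24.3 CPM in YKL. Both YKL libraries were far above both DMSO libraries, with ratios between single libraries from 4.57 to 8.7. The log2 fold change was 2.68 ± 0.31 (standard error), and 0.352% of the tested genes had a larger one. Etv5 (ENSMUSG00000013089, chromosome 16, 22381309 to 22439719, minus strand), the partner of Etv4 in lung branching, had 12 and 7.87 CPM in DMSO and 39.8 and 35.9 CPM in YKL, from 400, 248, 1221 and 1158 counts. Here too the groups were far apart, with library ratios from 3.01 to 5.06 and a log2 fold change of 1.93 ± 0.27.

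Etv1 (ENSMUSG00000004151, chromosome 12), the third PEA3 factor, was the most abundant of them in DMSO. It had 79.1 and 64.8 CPM in DMSO and 94.4 and 121 CPM in YKL, a log2 fold change of 0.58 ± 0.20 that was not called. The groups did not overlap, but the lowest YKL library was only 1.19 times the highest DMSO library. The makeup of the PEA3 family differed between the groups, which restates the higher Etv4 and Etv5 levels on which the set was chosen. Per exon length, Etv1 made up 58.2% and 57.3% of the summed level of the PEA3 genes in DMSO but 24.8% and 35.5% of it in YKL. The Etv4 share was 13.3% and 20.2% in DMSO against 41.3% and 30.5% in YKL, and the Etv5 share 28.5% and 22.5% against 33.9% and 34%. These shares depend on the exon length used, 13296 bases for Etv1 against 3104 for Etv4 and 4103 for Etv5. In CPM, Etv1 remained the highest of them in both YKL libraries. The summed level of the family was 95.3 and 78 CPM in the DMSO libraries, against 171 and 182 CPM with YKL.

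**Figure D1:**
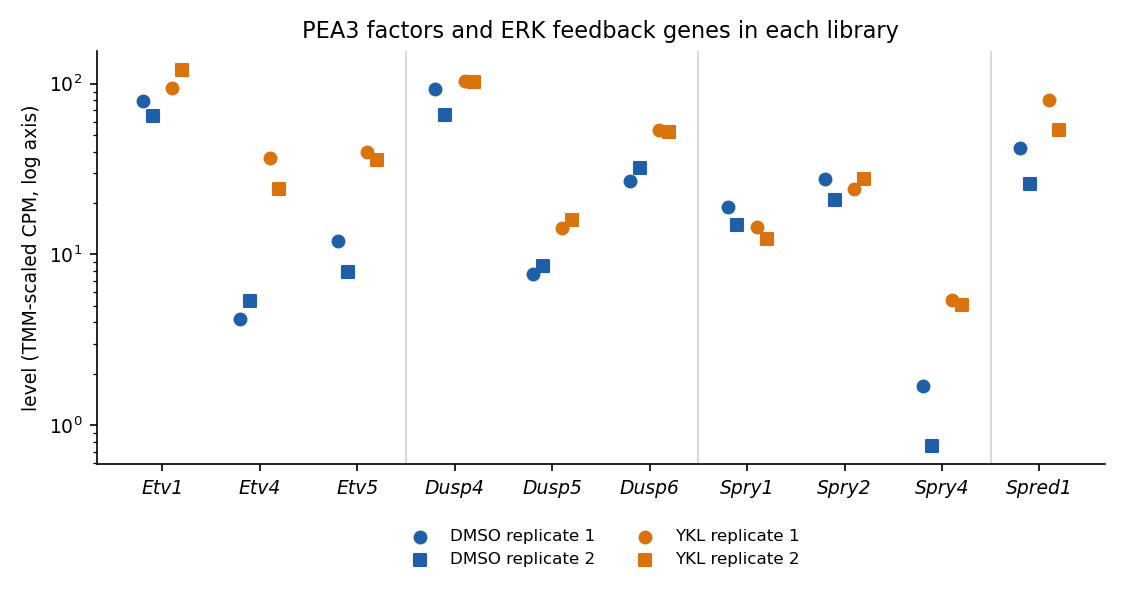
TMM-scaled CPM (log axis) of each gene in each library, with DMSO in blue and YKL in orange, circles for replicate 1 and squares for replicate 2. Etv4, Etv5 and Spry4 show the widest gaps, Spry4 is lowest at 0.761 to 5.38 CPM, and the groups of Spry2 overlap.

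None of the MAP kinase phosphatases was called, although both YKL libraries were above both DMSO libraries for each of them. Dusp6 (ENSMUSG00000019960, chromosome 10, 99263231 to 99267489), a cytoplasmic phosphatase selective for ERK, had 27.1 and 32.3 CPM in DMSO and 53.6 and 51.9 CPM in YKL. The YKL libraries were close to each other and at least 1.61 times either DMSO library, and the log2 fold change was 0.83 ± 0.20. Dusp5 (ENSMUSG00000034765, chromosome 19), a nuclear phosphatase that also prefers ERK, had 7.68 and 8.53 CPM in DMSO and 14.2 and 16 CPM in YKL. The log2 fold change was 0.90 ± 0.29, and the lowest YKL library was 1.66 times the highest DMSO library. Dusp4 (ENSMUSG00000031530, chromosome 8), a nuclear phosphatase with a wider choice of MAP kinases, had 92.8 and 65.8 CPM in DMSO and 103 and 102 CPM in YKL. Its groups lay close together, at a lowest ratio of 1.1 and a log2 fold change of 0.37 ± 0.21, and the value was 0.65 without DMSO replicate 1 and 0.11 without DMSO replicate 2.

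The Sprouty genes did not share 1 pattern. Spry4 (ENSMUSG00000024427, chromosome 18) had 57 and 24 counts in DMSO and 165 and 164 counts in YKL, or 1.7 and 0.761 CPM against 5.38 and 5.09 CPM. The groups were apart by a factor of at least 2.99, but the DMSO libraries differed 2.24-fold from each other. Its log2 fold change of 2.08 ± 0.50, the second largest of the set, was not called, and it was 2.78 without DMSO replicate 1 and 1.58 without DMSO replicate 2. Spry1 (ENSMUSG00000037211, chromosome 3) was the only one of the 10 genes with both YKL libraries below both DMSO libraries, at 19 and 14.8 CPM in DMSO and 14.4 and 12.3 CPM in YKL. That log2 fold change of -0.34 ± 0.28 was not called, and it was -0.15 without DMSO replicate 1 and -0.54 without DMSO replicate 2. Spry1 shares exonic bases with Gm42922 on the other strand, which had 4, 4, 4 and 3 counts, and none of the other 9 genes shares exonic bases with another gene. Spry2 (ENSMUSG00000022114, chromosome 14) had 27.5 and 20.8 CPM in DMSO and 24.1 and 27.6 CPM in YKL. Those groups overlapped, with a log2 fold change of 0.10 ± 0.24 that turned to -0.12 without DMSO replicate 2 and to -0.0067 without YKL replicate 2.

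Spred1 (ENSMUSG00000027351, chromosome 2, 117121374 to 117182279), which brings the RAS inhibitor neurofibromin to the membrane, had 42 and 25.9 CPM in DMSO and 79.9 and 53.9 CPM in YKL. The groups were apart by a factor of at least 1.28, and both pairs were wide. The log2 fold change was 0.98 ± 0.29 and was not called. It ranged from 0.63 without DMSO replicate 2 to 1.37 without DMSO replicate 1.

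At a Benjamini-Hochberg adjusted p under 0.05 over all genes tested, edgeR's quasi-likelihood test called 2 of the 10 genes higher, Etv4 and Etv5, and none lower. Over all 16749 tested genes it called 3.54%, 2.1% higher and 1.44% lower. The groups did not overlap, with YKL above, in 8 of the 10 genes, against 27.0% of all genes tested, and in 1 gene YKL was below, against 25.3%. The median log2 fold change of the set was 0.86, against -0.0001 over all genes tested, where scaling places it, so a change shared by most transcripts would not show. None of these counts is support for the set, which was chosen on this contrast. The number called depended on single libraries. It was 4 without DMSO replicate 1, when Spry4 and Spred1 joined, and 4 without DMSO replicate 2, when Dusp6 and Spry4 did, beside 3.77% and 7.96% of all genes called higher in those fits. It remained at Etv4 and Etv5 without YKL replicate 1 and without YKL replicate 2, beside 0.331% and 0.294% of all genes called higher.

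DESeq2 on the same counts called 6 of the 10 higher, namely Etv4, Etv5, Dusp5, Dusp6, Spry4 and Spred1, beside 4.92% of all genes called higher. The authors' deposited table lists 7 of the 10 as higher at an adjusted p under 0.05, those 6 and Etv1, and it lists 13.9% of its 15936 genes as higher. In the authors' deposited table the log2 fold changes are 2.29 for Etv4, 1.73 for Etv5, 1.58 for Spry4, 0.93 for Spred1, 0.81 for Dusp5, 0.76 for Dusp6 and 0.52 for Etv1. Dusp4, Spry1 and Spry2 are not called there, at 0.35, -0.33 and 0.08.

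**Figure D2:**
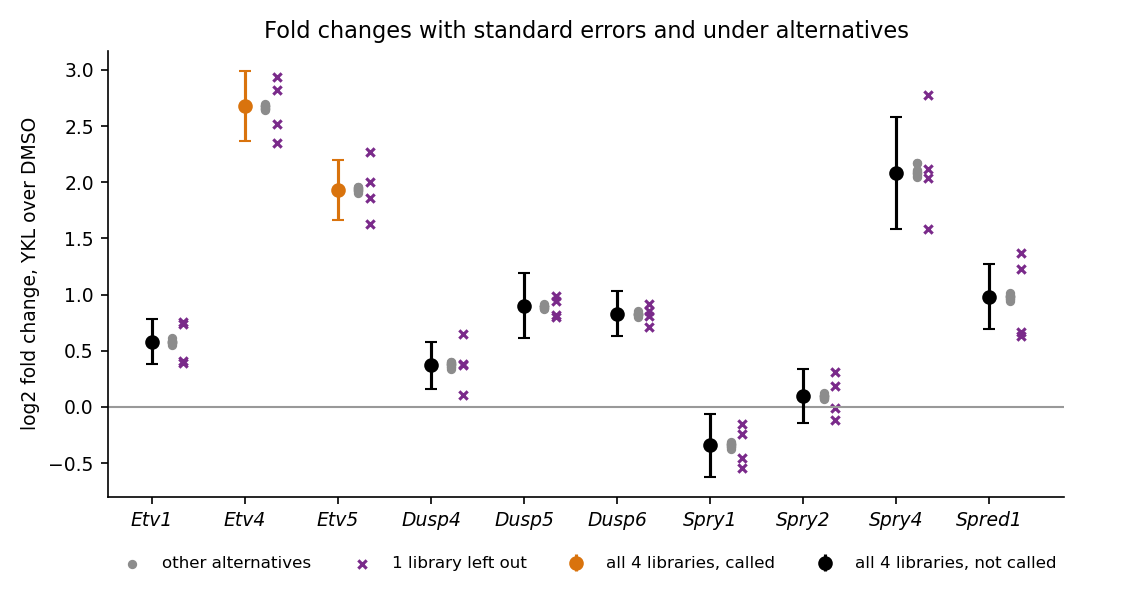
Log2 fold change of YKL over DMSO for each gene, with its standard error (bars; orange where called, black where not), beside the values under alternatives with all libraries (grey) and with 1 library left out (purple crosses). Etv4 stays between 2.35 and 2.94 and Etv5 between 1.63 and 2.27, while Spry2 falls on both sides of 0.

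Levels of different genes were compared per kilobase of exon. In DMSO, Dusp4 was highest at 28.9 CPM per kb, followed by Spry2 at 11.6, Dusp6 at 9.48, Spry1 at 5.81, Etv1 at 5.41, Spred1 at 5.01, Dusp5 at 3.28, Etv5 at 2.42, Etv4 at 1.54 and Spry4 at 0.269 CPM per kb. The ranges of the DMSO libraries overlapped between Spry2 and Dusp6, between Spry1 and Etv1 and between Etv1 and Spred1, so these neighbours did not differ beyond their spread. In YKL the order was Dusp4 at 37.5 CPM per kb, Dusp6 at 16.8, Spry2 at 12.4, Spred1 at 9.86, Etv4 at 9.82, Etv5 at 9.24, Etv1 at 8.11, Dusp5 at 6.1, Spry1 at 4.59 and Spry4 at 1.14 CPM per kb. There the ranges of neighbours from Spry2 down to Etv1 overlapped. Etv4 thus stood at place 9 in DMSO and 5 in YKL, while Spry1 stood at place 4 and 9. In YKL the PEA3 genes lay at similar levels per length, whereas in DMSO the range of each stood apart from those of the other PEA3 genes. Without division by length, Etv1 had the most CPM of them in every library.

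**Figure D3:**
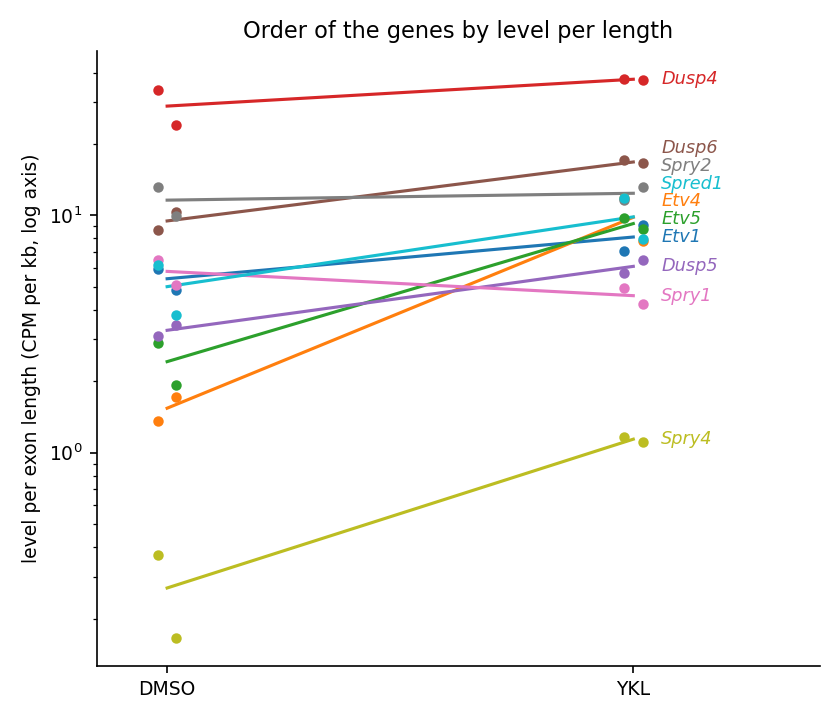
Level of each gene in CPM per kilobase of exon (log axis) in DMSO and YKL, with points for the 2 libraries and lines between group means. The lines of Etv4 and Etv5 climb from the lower part of the plot to the level of Etv1 and Spred1, Dusp4 stays on top, and Spry4 stays lowest in both groups.

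The vehicle libraries also differed from each other. DMSO replicate 1 was above DMSO replicate 2 in 7 of the 10 genes, against 49.9% of all genes tested, and below it for Etv4, Dusp5 and Dusp6. The ratio of the higher to the lower DMSO library ran from 1.11 for Dusp5 to 2.24 for Spry4, and that of the YKL libraries from 1.01 for Dusp4 to 1.51 for Etv4.

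The genes with the most similar pattern to Etv4 over the 4 libraries were Clec2l, C1ql1 and Matn2, among 11243 other coding genes that averaged 5 CPM or more. Likeness was the Euclidean distance of log2 CPM, taken from the DMSO mean of each gene, and it was 0.31, 0.41 and 0.46. C1ql1 had 3.86 and 5.52 CPM in DMSO and 29.1 and 19.8 CPM in YKL, so that YKL replicate 1 was the highest library in both genes. For Etv5 the nearest were Necab1, Cd109 and Sirpa, at distances of 0.11, 0.27 and 0.29. Necab1 had 53.2 and 34.6 CPM in DMSO and 186 and 165 CPM in YKL, and its exons overlap those of Gm11837 on the other strand, which had 304, 114, 370 and 319 counts. Matches over 4 libraries are a description only.

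The upstream part of the pathway held calls in both directions. Of 42 genes for growth factor receptors, their ligands and the rest of the FGF family, 32 were tested. Their median log2 fold change was 0.34. Of the 32, 1 was higher and 2 were lower, beside 2.1% and 1.44% of all genes tested. Fgf11, Fgf12, Fgf13 and Fgf14 are counted among them as FGF family members, not as ligands that feed ERK. Kitl, the ligand of the receptor KIT, had 102 and 74.9 CPM in DMSO and 251 and 273 CPM in YKL. It rose 2.97-fold (log2 fold change 1.57 ± 0.20, edgeR adjusted p = 0.0102), and its call ended only at the stricter threshold of 0.01. Fgf21, an endocrine FGF, fell from 13.3 and 27 CPM in DMSO to 4.86 and 4.59 CPM in YKL (log2 fold change -2.09 ± 0.38, edgeR adjusted p = 0.0261). Fgf2, a ligand of FGF receptors, fell from 8.16 and 3.74 CPM to 1.24 and 1.46 CPM (log2 fold change -2.14 ± 0.50, edgeR adjusted p = 0.0498). Nudt6 overlaps Fgf2 on the other strand, with 37, 20, 26 and 26 counts. Leaving out either YKL library ended both calls, and leaving out DMSO replicate 1 ended that of Fgf2. Total count scaling also ended both, at an edgeR adjusted p of 0.0582 for Fgf21 and 0.0831 for Fgf2. The Fgf2 call further ended among protein-coding genes alone, with upper quartile scaling and with a prior that was not robust, at edgeR adjusted p-values from 0.0624 to 0.0739. The list had 10 calls without DMSO replicate 2 and 5 without DMSO replicate 1, beside 14.0% and 7.61% of all genes called. It had 1 call without YKL replicate 1, beside 0.606% of all genes called. Without YKL replicate 2 the list had more calls than without YKL replicate 1, although fewer of all genes were called. Counts this small do not show whether the list moved with all genes or apart from them.

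In the cascade itself, all 31 genes for adaptors, RAS, RAF, MEK, ERK, scaffolds and RAS inhibitors were tested. Of these 2 were lower and none higher, beside 1.44% and 2.1% of all genes tested. Rps6ka2, which encodes an RSK kinase activated by ERK, fell from 61.2 and 57.9 CPM to 26.5 and 33.5 CPM (log2 fold change -0.99 ± 0.20, edgeR adjusted p = 0.035). Braf, a RAF kinase, fell from 119 and 99.7 CPM to 66.9 and 56.9 CPM (log2 fold change -0.82 ± 0.19, edgeR adjusted p = 0.0499). Its exons overlap those of Ndufb2 on the other strand, which had 961, 827, 675 and 761 counts. Leaving out either YKL library ended both calls, and leaving out DMSO replicate 1 ended that of Braf. Both, and with them every call of this list, also ended when the prior was not robust and under total count or upper quartile scaling, at edgeR adjusted p-values from 0.0506 to 0.0569 for Rps6ka2 and from 0.0666 to 0.0753 for Braf. Among protein-coding genes alone the Braf call ended at 0.051. The list median was -0.06.

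Of 12 other feedback genes 11 were tested and none was called by edgeR, beside 3.54% of all genes tested. At an unadjusted edgeR p under 0.05 there were 4. Values that low were common here, since Emp1 at an unadjusted edgeR p of 0.0476 ranked 3460 of 16749 genes. DESeq2 called 1 of the 11, beside 1599 of all 16749. The most abundant per length, the EGF receptor inhibitor gene Errfi1 and Spred2, had log2 fold changes of 0.40 ± 0.20 and 0.24 ± 0.20. The list median was 0.24. For regulators of PEA3 factors, none of 8 was called, with 1 at an unadjusted p under 0.05 and none called by DESeq2, and the median was -0.11. Ddb1 and Dda1, parts of the ubiquitin ligase that works with COP1, had log2 fold changes of -0.13 ± 0.20 and 0.01 ± 0.18. The exons of Dda1 overlap those of Ano8 on the other strand, which had 2387, 3315, 3153 and 2798 counts. Cic, named after its values were seen, had 198 and 290 CPM in DMSO and 254 and 280 CPM in YKL, so its groups overlapped. Atxn1 and Atxn1l, listed with Cic as its repressor complex and also named afterwards, were lower in both YKL libraries than in both DMSO libraries. Their log2 fold changes of -0.84 ± 0.34 and -0.39 ± 0.19 were not called. Of the 8 regulators, YKL was below in 3 and above in none, beside 25.3% and 27.0% of all genes tested, and 5 overlapped.

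Of 23 other ETS factors 17 were tested, with a median log2 fold change of 0.34. Among them 1 was lower and none higher, beside 1.44% and 2.1% of all genes tested. Ehf, an epithelial ETS factor, fell from 92.7 and 82.5 CPM to 40.9 and 37.8 CPM (log2 fold change -1.15 ± 0.19, edgeR adjusted p = 0.0189). Its call ended when either YKL library was left out, and the list had 4 calls without DMSO replicate 1 and 4 without DMSO replicate 2, fits in which 7.61% and 14.0% of all genes were called. Of 11 other transcripts that respond to ERK in many cells 1 was higher, beside 2.1% of all genes tested. The list median was 0.16. Epha2, an ephrin receptor, rose from 13 and 10.8 CPM to 32.7 and 27.9 CPM (log2 fold change 1.35 ± 0.25, edgeR adjusted p = 0.026), a call that ended when either YKL library was left out and with total count scaling (edgeR adjusted p = 0.0506). Without DMSO replicate 2 this list had 5 calls, beside 14.0% of all genes. Ccnd1, the cyclin D1 gene named after its values were seen, had only 0.598 and 0.571 CPM in DMSO and 0.424 and 0.497 CPM in YKL.

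**Figure D4:**
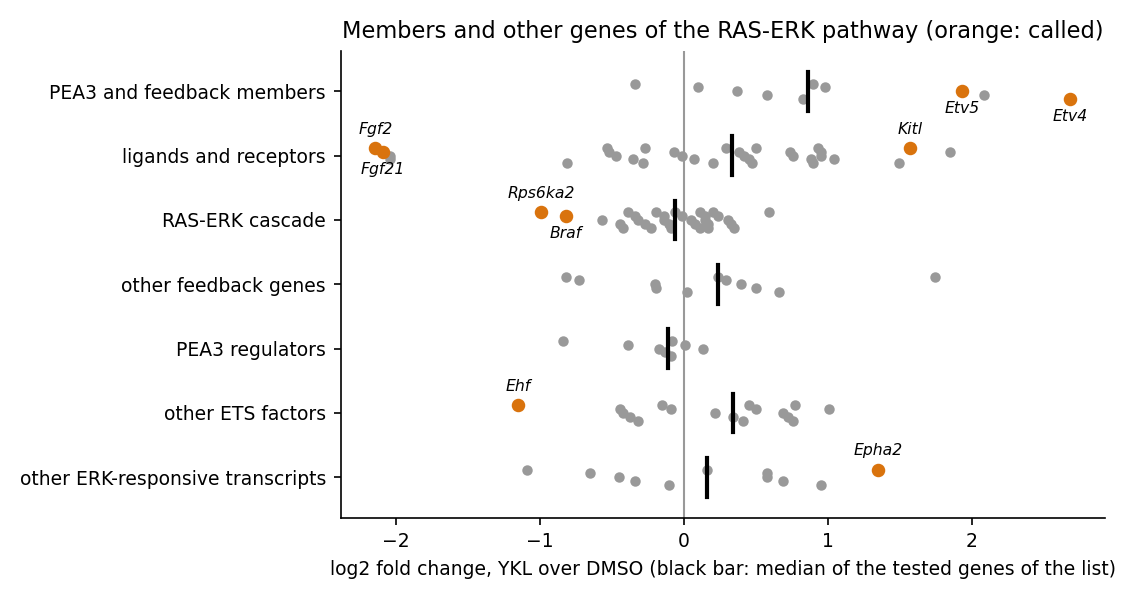
Log2 fold change of YKL over DMSO for each tested gene (points; called genes in orange and named) of the set and of 6 lists of related genes, with the median of each list as a black bar. The set has a median of 0.86 and the lists have medians from -0.11 to 0.34.

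Most of the 10 genes are compact, but Etv1, Etv4 and Etv5 have 13 exons each. Etv1, Etv5 and Spred1 span 91.11, 58.41 and 60.91 kb. In GENCODE M21 the median genomic span was 14.2 kb and the median number of exons 4, against 24.9 kb and 8 over 14032 tested protein-coding genes. Their longest annotated 3' untranslated regions had a median of 1150 bases, against 1190 bases. The pentamer ATTTA, a mark of many short-lived transcripts, occurred a median of 2 times in both, or 1.94 times per kb against 1.3. It occurred 16 times in Etv1 and 12 times in Spred1, and 5 times in Etv5, but 0 times in the 624 bases of Etv4. The genes with the largest fold changes were therefore on both sides of the median for this feature.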

How the data were processed

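Total RNA of RPP631 cells was sequenced by the submitters. Per the submitters' processing notes, STAR 2.5.2b aligned the reads to mm10 and featureCounts assigned them. In the deposited count file each gene has its exon length and 1 raw count for each library. The strand setting and the treatment of reads with several matches are not given in the sources used here. A deposited file of the authors' own DESeq2 comparison gives, for each gene, a mean normalized signal, the log2 fold change with its error, the score of the test, and the p-value before and after adjustment. It was used for comparison only.

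Counts were tested with edgeR 4.0.16 in R 4.3.3, with filterByExpr (minimum count 10, minimum total 15), TMM scaling and the quasi-likelihood F test (robust prior, 2 residual degrees of freedom). The standard error of a log2 fold change is its size over the square root of F. CPM are TMM-scaled. Tested on simulated data, the procedure made false calls more often than its nominal rate, so calls near the threshold are less certain than their adjusted p states. DESeq2 1.42.0 was an alternative. The alternatives also covered scaling, filters, the replicate block, the robust prior, biotype, threshold and single libraries.

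The 10 genes and the lists were chosen with earlier results of these data known. Of the cell type markers, 2 are not reported here. From each list the text names 2 called genes, ranked by p, for the direction that held most calls and 1 for the opposite one, or else the 2 genes of highest level per length. The nearest patterns used 0.1 CPM as pseudocount. Start-site sequences came from RefSeq (GRCm38.p6), and transcript features from GENCODE M21, which held 99.72% of the gene identifiers. Where a gene had several coding transcripts, the one with the longest 3' untranslated region was used. Figures were drawn with matplotlib 3.10.9.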

Additional observations from a re-analysis of the deposited data

How the results depend on the processing

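Over all genes, 593 were called, against 169 with total count scaling, 331 with upper quartile scaling, 1740 without the filter, 236 without the robust prior, 1599 by DESeq2 and 30 at an adjusted p under 0.01. With 1 library left out the count ran from 71 to 2453. Of the 10 genes, 2 were called, against 4 with RLE scaling, 5 without the filter, 6 by DESeq2 and 1 at an adjusted p under 0.01, and 2 to 4 with 1 library left out. The cause was not tested. With the replicate number as a block, 1387 genes and 5 of the 10 were called. DESeq2 with that block, an alternative chosen after seeing the data, called 1311 and 5. The labels do not say that the numbers pair the libraries, and the deviations of same-numbered libraries correlated at 0.152 over genes. Etv4 was called in 15 of 15 alternatives, Etv5 in 14 of 15, all but the threshold of 0.01, Spry4 in 7 of 14, Dusp6 in 6 of 15, Spred1 in 5 of 15 and Dusp5 in 1 of 15. Etv1, Dusp4, Spry1 and Spry2 were called in none. With 1 library left out, the log2 fold change took both signs for Spry2 (-0.12 to 0.31), Spred2 (-0.0067 to 0.48), Ddb1 (-0.32 to 0.04) and Dda1 (-0.12 to 0.11). That of Dda1 also turned with RLE scaling (-0.0028), by DESeq2 (-0.0028) and without the filter (-0.02). None of these 4 genes was called in any alternative. At 24 to 57 counts in DMSO, Spry4 had the fewest counts of the set.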
